A study of Mus musculus with 4 samples.

Results

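The genes described here are 44 genes whose products act in G2 phase and mitosis, such as cyclins, mitotic kinases, kinetochore and spindle proteins and factors of cell division. They were chosen by name and sorted here into 8 roles, and all 44 were present, each on 1 row, among the 11603 genes of the deposited table. RNA was sequenced from muscle stem cells, the resident precursors of skeletal muscle, sorted by flow cytometry from the hindlimb muscle of male C57BL/6 mice aged 4 to 5 months. The gate was VCAM1+ CD31- CD45- Sca1-. There were 2 libraries from mice labelled Control and 2 from mice labelled Conditional Hairless knockout. The gene deleted, Hairless (Hr), encodes a nuclear corepressor, and the series title names it as a histone demethylase antagonist. The sources used here do not give the allele, the driver of the deletion or what the controls carry. Nor do the labels tell whether libraries of 1 group are from different animals, and a p-value then reflects only the spread between the samples, which may be technical.

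Adult muscle stem cells are mostly quiescent, outside the cell cycle, and enter it after injury. The genes of mitosis are transcribed late in the cycle: cyclin A and cyclin B with the kinase CDK1 drive entry into mitosis, the Aurora and Polo-like kinases and the kinetochores attach chromosomes to the spindle, the spindle checkpoint holds back the anaphase-promoting complex (APC/C) until all are attached, and the central spindle directs division of the cell. In resting cells these genes are held off by the DREAM complex, which binds a short promoter element named CHR, and many of their promoters also carry CCAAT boxes, the binding element of the factor NF-Y.

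Values are RPKM, reads scaled by exon length and by a library size that the authors set, so they can be compared between genes. They are given in the order control 1 and control 2, then knockout 1 and knockout 2, with n = 2 per group. Total reads on listed genes ranged from 21757211 to 34101213 per library. Hr itself stood at 9.28 and 8.94 RPKM (control) versus 7.15 and 7.90 RPKM (knockout), a log2 fold change of -0.26 ± 0.16 (SE) with a limma adjusted p of 0.431, over all exons together, so its transcript was not lost and the direction of each difference below rests on the sample labels. Stem cell markers were present in all 4 libraries, among them Pax7 with 8.23 and 12.9 RPKM (control) versus 9.03 and 13.1 RPKM (knockout) and Vcam1, a gate antigen, with 145 and 108 RPKM (control) versus 155 and 101 RPKM (knockout). Ptprc, which encodes the excluded antigen CD45, had at most 0.0399 RPKM. Ly6a, which encodes the excluded antigen Sca1, stood at 47.9 and 49.5 RPKM (control) versus 77.4 and 80.7 RPKM (knockout).

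In the knockout libraries, mitosis and spindle genes were lower nearly throughout. The median ratio of control mean to knockout mean over the 44 genes was 4.90, against 1.01 over all 11603 genes. In 25 genes the knockout mean was at least 4-fold lower, in 12 it was between 2-fold and 4-fold lower, and in 7 the difference was less than 2-fold. The largest ratios belonged to Aurkb, the catalytic subunit of the chromosomal passenger complex (22.7-fold), the mitotic kinase Pbk (17.7-fold) and Cdca3, a factor for mitotic entry (17.5-fold). The smallest was that of the kinetochore subunit Nuf2 (1.05-fold).

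None of these differences passed the test across all genes in the fit with genotype as its single term. Limma called 0 of the 44 genes at an adjusted p under 0.05, with adjusted p values from 0.126 to 0.925, and over all genes it called 0.00862% lower and 0.0% higher. Of the 44, 37 were lower by limma at an unadjusted p under 0.05, where 7.69% of all genes were, and 0 were higher, where 10.3% of all genes were. The authors' deposited table gave a q-value under 0.05 to 37 of the 44, all lower in knockout, where 4.26% of all genes were lower and 3.59% higher. These 2 counts shared 36 genes, with Cdc25c only in the first and Cenpe only in the second. With limma-voom on recovered reads the count at an adjusted p under 0.05 was again 0, with 35 lower at an unadjusted p under 0.05. The share of all genes in that fit is not given here. The groups were separated, with the 2 knockout libraries below the 2 control libraries, in 41 genes, against 26.2% of all genes, and the reverse held in 0, against 25.0%. The 3 genes not separated were Mad2l1, Aurka and Nuf2.

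The median fitted log2 fold change of the 44 genes was -0.96, and that of all genes was -0.01. These fitted changes are on the scale of log2(RPKM + 0.5), which understates the change of genes at low levels, and most of the 44 were low. With limma-voom on recovered reads the median was -2.17, and with a pseudocount of 0.1 RPKM it was -1.62. The median control mean was 1.44 RPKM, against 6.42 RPKM over all genes, and 19 of the 44 genes had a control mean under 1 RPKM. In knockout 37 had a mean under 1 RPKM, and 15 rested on fewer than 10 reads in at least 1 knockout library. No library had 0 reads for any of them. In bulk RNA, fewer cells in mitosis and less of these RNAs per cell cannot be told apart.

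**Figure D1:**
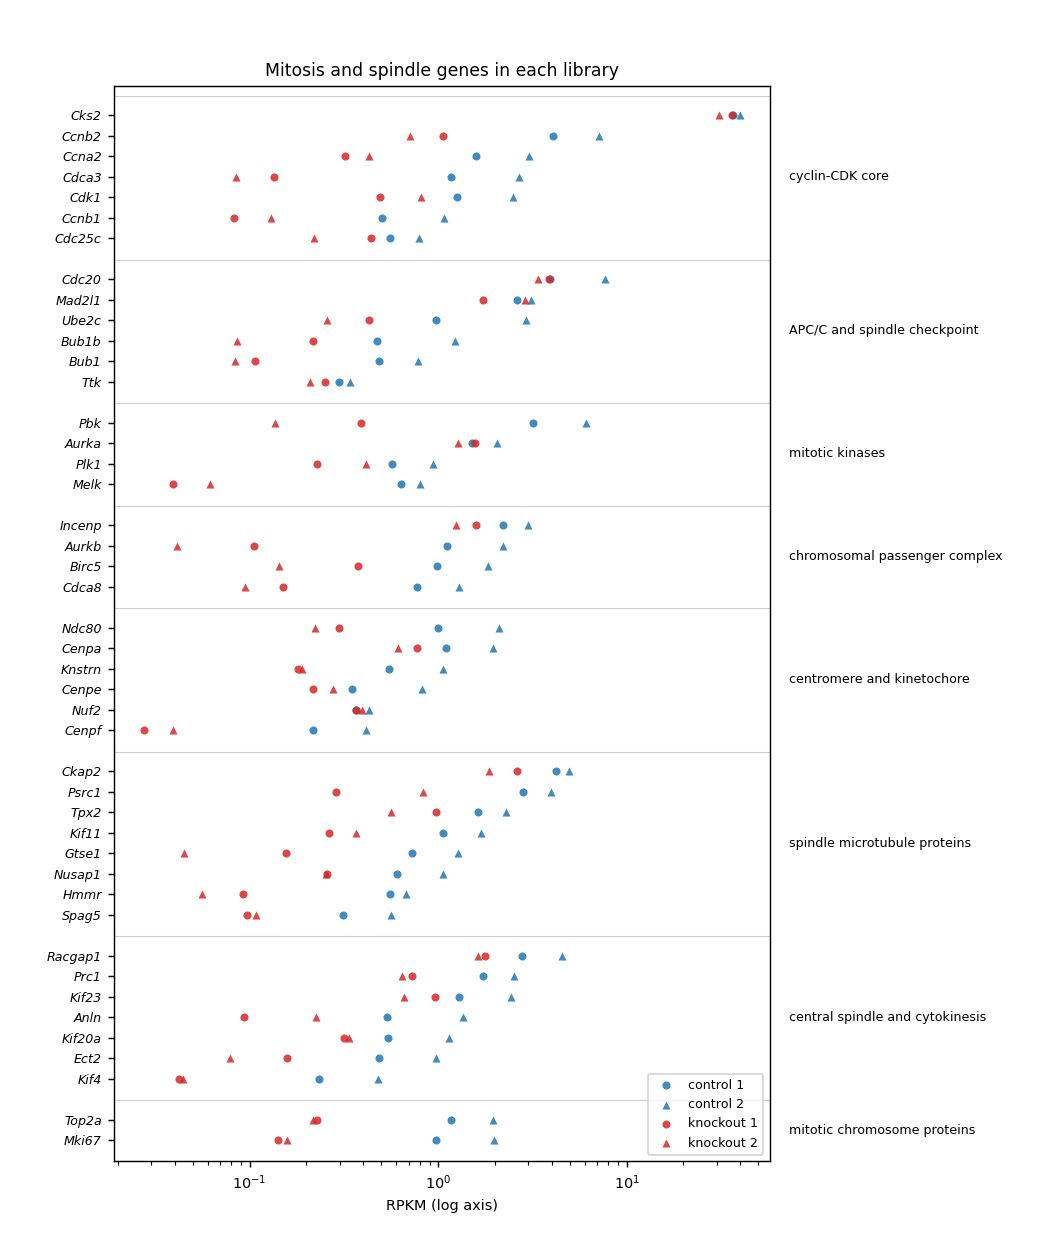
Level of each of the 44 genes in each library, in RPKM on a log axis, grouped by role, with circles for replicate 1 and triangles for replicate 2. Red knockout symbols lie left of both blue control symbols in 41 genes, and the control 2 triangle lies right of the control 1 circle in all 44.

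The genes were not chosen by promoter sequence, but as a class they are known for the CHR and CCAAT elements named above. Counts of these elements therefore describe the class and not the knockout. RefSeq windows (GRCm38.p6, the build of the table) from 250 bases before to 50 bases after a start site were matched for 37 of the 44 genes, with 41 windows in all. Aurkb, Ccna2, Cdc25c, Incenp, Kif20a, Pbk and Tpx2 were not matched. The 120 bases before the first listed start site are shown for 7 genes, picked after their values were seen: 4 that were more than 2-fold lower in knockout and represent cyclins (Ccnb2, Ccnb1), their kinase (Cdk1) and the chromosomal passenger complex (Cdca8), then Cdc20, which was 1.59-fold lower, and Cks2 and Nuf2, which were 1.14-fold and 1.05-fold lower. Capitals mark the letters CCAAT, or ATTGG on the other strand, and TTTGAA, or TTCAAA on the other strand, the core of the CHR element.
Ccnb2: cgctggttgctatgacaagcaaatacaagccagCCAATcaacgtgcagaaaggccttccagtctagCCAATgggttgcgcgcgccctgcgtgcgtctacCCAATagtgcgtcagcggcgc
Ccnb1: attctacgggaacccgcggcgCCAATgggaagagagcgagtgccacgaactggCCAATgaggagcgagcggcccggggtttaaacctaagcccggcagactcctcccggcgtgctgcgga
Cdk1: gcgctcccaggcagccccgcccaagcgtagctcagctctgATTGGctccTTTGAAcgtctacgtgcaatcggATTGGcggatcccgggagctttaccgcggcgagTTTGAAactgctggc
Cdc20: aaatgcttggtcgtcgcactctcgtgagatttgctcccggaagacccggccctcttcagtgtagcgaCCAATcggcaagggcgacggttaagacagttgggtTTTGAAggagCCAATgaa
Cdca8: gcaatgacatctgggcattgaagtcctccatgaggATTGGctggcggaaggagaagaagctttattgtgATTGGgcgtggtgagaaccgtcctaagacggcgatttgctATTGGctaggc
Cks2: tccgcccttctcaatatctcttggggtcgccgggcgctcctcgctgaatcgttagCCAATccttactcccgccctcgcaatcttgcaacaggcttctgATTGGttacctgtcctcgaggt
Nuf2: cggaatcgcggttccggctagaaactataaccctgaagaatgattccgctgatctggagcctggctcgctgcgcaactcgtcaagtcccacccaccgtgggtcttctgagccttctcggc
The stretches lie at chr9:70421555-70421674, chr13:100786487-100786606, chr10:69352913-69353032, chr4:118437344-118437463 and chr4:124936918-124937037 on the minus strand, chr13:51645112-51645231 on the plus strand and chr1:169531465-169531584 on the minus strand. Ccnb2 and Cdca8 showed 3 CCAAT boxes each, Ccnb1, Cdk1, Cdc20 and Cks2 showed 2 each, and Nuf2 showed none of either element. TTTGAA stood in the Cdk1 stretch 2 times and in the Cdc20 stretch 1 time.

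Counted over the whole windows on both strands, CCAAT was present in 33 of the 41 windows (80.5%), against 37.4% of all 32851 RefSeq windows of that length. At least 2 CCAAT boxes were present in 22 of the 41 (53.7%), against 11.7% of all windows. TTTGAA was present in 27 of the 41 (65.9%), against 17.9% of all. The set of all windows was not limited to the genes measured here. Matches overlapped each other in 2 of the 41 windows. By size of the difference, with no test, CCAAT was found for 17 of the 22 matched genes that were at least 4-fold lower, 8 of 9 that were between 2-fold and 4-fold lower and 4 of 6 that were under 2-fold lower. TTTGAA was found for 15 of 22, 7 of 9 and 3 of 6 in the same order. Neither element was found for Melk, Birc5, Knstrn and Nusap1, which were 14.4-fold, 5.43-fold, 4.36-fold and 3.25-fold lower. Mad2l1 and Nuf2 also had neither. A match describes these letters in this window and is not evidence of binding.

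Among the 7 genes of the cyclin and CDK core, 6 were lower at an unadjusted p under 0.05 and 5 had a q-value under 0.05 in the authors' deposited table. Ccnb2, encoding the mitotic cyclin B2 (chromosome 9, 70407689 to 70421554, mm10), stood at 4.09 and 7.09 RPKM (control) versus 1.06 and 0.711 RPKM (knockout). Both knockout values were under the lower control value, and the means were 5.59 ± 2.12 and 0.883 ± 0.244 RPKM (SD, n = 2 each), with a log2 fold change of -2.10 ± 0.29 (SE) and a limma adjusted p of 0.133. Cdca3, which promotes entry into mitosis by way of the degradation of the inhibitory kinase WEE1, stood at 1.17 and 2.67 RPKM (control) versus 0.135 and 0.0850 RPKM (knockout). This was a 17.5-fold difference of the means on 78 and 160 reads in control and 10 and 4 reads in knockout, with a log2 fold change of -1.92 ± 0.31. The groups did not overlap in either gene, and control 2 stood highest in both.

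Cyclin A2 (Ccna2) measured 1.59 and 3.02 versus 0.323 and 0.432 RPKM and cyclin B1 (Ccnb1) 0.501 and 1.07 versus 0.0827 and 0.130 RPKM, 6.11-fold and 7.38-fold lower in knockout. Cdk1, the kinase these cyclins activate, measured 1.26 and 2.49 versus 0.495 and 0.813 RPKM. Its mean was 2.87-fold lower, less than that of its cyclins, but no test compared them. Cdc25c, a phosphatase that activates CDK1, measured 0.555 and 0.790 versus 0.439 and 0.220 RPKM, with a q-value of 0.114 in the authors' deposited table. Cks2, a small CDK-binding subunit, was by far the most abundant of the 44 genes, with 36.6 and 39.8 RPKM (control) versus 36.2 and 30.8 RPKM (knockout). Its means of 38.2 ± 2.24 and 33.5 ± 3.79 RPKM (SD, n = 2 each) differed by 1.14-fold, with a log2 fold change of -0.19, an unadjusted 95% interval of -0.56 to 0.18 and a limma adjusted p of 0.540.

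The APC/C and checkpoint genes split in level and in difference, with 3 of 6 lower at an unadjusted p under 0.05. Bub1, a checkpoint kinase at kinetochores (chromosome 2, 127801122 to 127831865), stood at 0.485 and 0.781 RPKM (control) versus 0.107 and 0.0839 RPKM (knockout). The groups were well apart, at 49 and 71 reads in control and 12 and 6 reads in knockout, and the log2 fold change was -0.92 ± 0.16 with an authors' deposited q-value of 8.00e-10. Bub1b, encoding the checkpoint protein BUBR1, measured 0.474 and 1.23 versus 0.217 and 0.0854 RPKM. Ube2c, the ubiquitin-conjugating enzyme of the APC/C, stood at 0.979 and 2.91 RPKM (control) versus 0.432 and 0.258 RPKM (knockout), a log2 fold change of -1.42 ± 0.39. Of the Ube2c exon bases in the table, 22.8% also lie in exons of Tnnc2 on the opposite strand (GENCODE M21). Tnnc2 encodes the troponin C of fast muscle fibres and is not among the genes listed, so its level is not known here. The sources used here do not say whether reads were counted by strand, and the part of such reads in the Ube2c values was not tested.

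Cdc20, the activator of the APC/C, stood at 3.90 and 7.67 RPKM (control) versus 3.88 and 3.39 RPKM (knockout). Only control 2 stood apart, control 1 and knockout 1 were almost equal, and the log2 fold change of -0.54 ± 0.31 had an unadjusted 95% interval of -1.32 to 0.24. Ttk, the checkpoint kinase MPS1, measured 0.298 and 0.341 versus 0.252 and 0.210 RPKM, and Mad2l1, the checkpoint protein MAD2, measured 2.62 and 3.11 versus 1.72 and 2.87 RPKM. Their log2 fold changes had intervals of -0.45 to 0.12 and -0.91 to 0.32. Mad2l1 is 1 of the 3 genes in which the groups overlapped.

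Of the 4 other mitotic kinases, Pbk and Melk were the clearest. Pbk, encoding a MAPKK-like kinase of mitosis (chromosome 14, 65805837 to 65817822), stood at 3.18 and 6.10 RPKM (control) versus 0.389 and 0.136 RPKM (knockout). This was the most negative log2 fold change of the 44, -2.71 ± 0.32, on 132 and 228 reads in control and 18 and 4 reads in knockout, and the authors' deposited q-value was 2.55e-24, with a limma adjusted p of 0.133. Melk, a kinase of proliferating cells, stood at 0.638 and 0.806 RPKM (control) versus 0.0391 and 0.0614 RPKM (knockout). Its means of 0.722 ± 0.118 and 0.0503 ± 0.0158 RPKM (SD, n = 2 each) were 14.4-fold apart, but only 3 reads stood behind each knockout value. Plk1, the Polo-like kinase of mitotic entry and spindle assembly, measured 0.568 and 0.935 versus 0.229 and 0.414 RPKM and was 2.34-fold lower. Aurka, the spindle pole kinase, measured 1.52 and 2.04 versus 1.58 and 1.27 RPKM: knockout 1 was above control 1, and the log2 fold change of -0.24 had an interval of -0.72 to 0.24.

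The chromosomal passenger complex corrects faulty attachments of chromosomes to the spindle, and all 4 of its genes were lower at an unadjusted p under 0.05. Aurkb (chromosome 11, 69045647 to 69051664) stood at 1.11 and 2.21 RPKM (control) versus 0.105 and 0.0413 RPKM (knockout). Those values rest on 76 and 136 reads in control and 8 and 2 reads in knockout, and the log2 fold change was -1.87 ± 0.26. Cdca8, encoding the subunit borealin, stood at 0.775 and 1.29 RPKM (control) versus 0.150 and 0.0941 RPKM (knockout), with a log2 fold change of -1.28 ± 0.19 and the q-value 2.74e-16 in the authors' deposited table. Both are cases in which the higher knockout value was several times below the lower control value. Birc5, encoding survivin, measured 0.989 and 1.83 versus 0.376 and 0.143 RPKM and was 5.43-fold lower. Incenp, the scaffold of the complex, stood at 2.20 and 2.98 RPKM (control) versus 1.59 and 1.25 RPKM (knockout). It was the most abundant of the 4 in knockout and had the smallest difference, 1.82-fold, with a log2 fold change of -0.68 ± 0.20.

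Of the 6 centromere and kinetochore genes, 4 were lower at an unadjusted p under 0.05 and 5 by the authors' deposited q-value. Ndc80, the microtubule-binding subunit of the outer kinetochore (chromosome 17, 71496100 to 71526857), stood at 0.999 and 2.11 RPKM (control) versus 0.299 and 0.221 RPKM (knockout). Nuf2, whose product pairs with NDC80 in the same complex, stood at 0.367 and 0.431 RPKM (control) versus 0.366 and 0.394 RPKM (knockout). Ndc80 was 5.98-fold lower and Nuf2 1.05-fold, with log2 fold changes of -1.38 ± 0.27 and -0.03 ± 0.12 and, for Nuf2, an interval of -0.33 to 0.27. The difference between these 2 genes was not tested.

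Knstrn, encoding the kinetochore protein kinastrin, stood at 0.552 and 1.06 RPKM (control) versus 0.180 and 0.189 RPKM (knockout), with the 2 knockout libraries close together and a log2 fold change of -0.90 ± 0.21. Cenpa, the histone H3 variant of centromeres, stood at 1.10 and 1.95 RPKM (control) versus 0.773 and 0.613 RPKM (knockout). It was the most abundant gene of the role in knockout, and its log2 fold change was -0.73 ± 0.24. Cenpf and Cenpe, a kinetochore-associated protein and a kinetochore motor, measured 0.218 and 0.416 versus 0.0276 and 0.0394 RPKM and 0.350 and 0.817 versus 0.216 and 0.275 RPKM. Cenpf was lower by 9.45-fold and Cenpe by 2.38-fold.

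All 8 spindle microtubule genes were lower at an unadjusted p under 0.05 and by the authors' deposited q-value. Hmmr, a spindle-associated hyaluronan receptor (chromosome 11, 40701395 to 40733422), stood at 0.556 and 0.679 RPKM (control) versus 0.0927 and 0.0560 RPKM (knockout). Its control values were close together, at 70 and 77 reads in control and 13 and 5 reads in knockout, and the log2 fold change was -0.96 ± 0.12. Psrc1, a microtubule regulator of the spindle, stood at 2.82 and 3.99 RPKM (control) versus 0.288 and 0.832 RPKM (knockout). Here knockout 2 was well above knockout 1, while both stayed under the controls, and the log2 fold change was -1.91 ± 0.30. Ckap2, a microtubule-binding protein, stood at 4.21 and 4.92 RPKM (control) versus 2.61 and 1.87 RPKM (knockout). It was the most abundant of the 8 in every library and 2.04-fold lower.

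The other 5 of that role ranged from 2.56-fold lower for Tpx2, a spindle assembly factor that activates Aurora A, to 9.92-fold lower for Gtse1, a microtubule-stabilising protein of G2 and mitosis. Kif11, the motor that separates the spindle poles, measured 1.06 and 1.69 versus 0.265 and 0.366 RPKM. Nusap1 and Spag5, which bundle or anchor spindle microtubules, were 3.25-fold and 4.28-fold lower.

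All 7 genes of the central spindle and cytokinesis were lower at an unadjusted p under 0.05 and by the authors' deposited q-value, with ratios from 2.15-fold to 8.26-fold. Prc1, which bundles the microtubules of the central spindle (chromosome 7, 80294450 to 80316259), stood at 1.73 and 2.52 RPKM (control) versus 0.725 and 0.644 RPKM (knockout). With 329 and 432 reads in control and 154 and 87 reads in knockout it was one of the better covered genes, and its log2 fold change was -1.13 ± 0.20 with a limma adjusted p of 0.138. Ect2, which activates RhoA at the division plane, stood at 0.488 and 0.970 RPKM (control) versus 0.158 and 0.0791 RPKM (knockout), a log2 fold change of -0.97 ± 0.21. Racgap1, the centralspindlin subunit that binds ECT2, stood at 2.79 and 4.51 RPKM (control) versus 1.77 and 1.63 RPKM (knockout). Its knockout libraries lay close together and under both controls, 2.15-fold lower, with a log2 fold change of -0.89 ± 0.24.

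Kif23, the motor of centralspindlin, measured 1.29 and 2.44 versus 0.962 and 0.658 RPKM and was 2.30-fold lower. Anln, the scaffold of the contractile ring, measured 0.533 and 1.36 versus 0.0929 and 0.225 RPKM. Kif4, a chromosome-bound motor, measured 0.235 and 0.478 versus 0.0421 and 0.0442 RPKM and was 8.26-fold lower. Kif20a, a motor that carries the passenger complex to the central spindle, measured 0.545 and 1.15 versus 0.316 and 0.337 RPKM. Of its exon bases 33.2% overlap those of Cdc23 on the opposite strand, and Cdc23, an APC/C subunit, measured 3.39 and 3.89 versus 2.50 and 2.57 RPKM. In all, 11 of the 44 genes overlapped another gene's exons, by 1.35% to 33.2% of their bases, and what part such reads had was not tested.

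The 2 genes of mitotic chromosomes are long, so a given RPKM rests on more reads than in shorter genes. Top2a, the topoisomerase that untangles sister chromosomes, stood at 1.17 and 1.96 RPKM (control) versus 0.228 and 0.216 RPKM (knockout). On 245 and 369 reads in control and 53 and 32 reads in knockout, its means were 1.57 ± 0.558 and 0.222 ± 0.00821 RPKM (SD, n = 2 each), 7.06-fold lower in knockout, with a log2 fold change of -1.49 ± 0.21 and a limma adjusted p of 0.133. Mki67, which encodes the proliferation marker Ki-67 that coats mitotic chromosomes, stood at 0.976 and 1.98 RPKM (control) versus 0.142 and 0.157 RPKM (knockout). On 228 and 416 reads in control and 37 and 26 reads in knockout, its ratio was 9.87-fold and its log2 fold change -1.56 ± 0.26. The 2 knockout libraries lay close together for both genes, whereas control 2 was well above control 1.

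**Figure D2:**
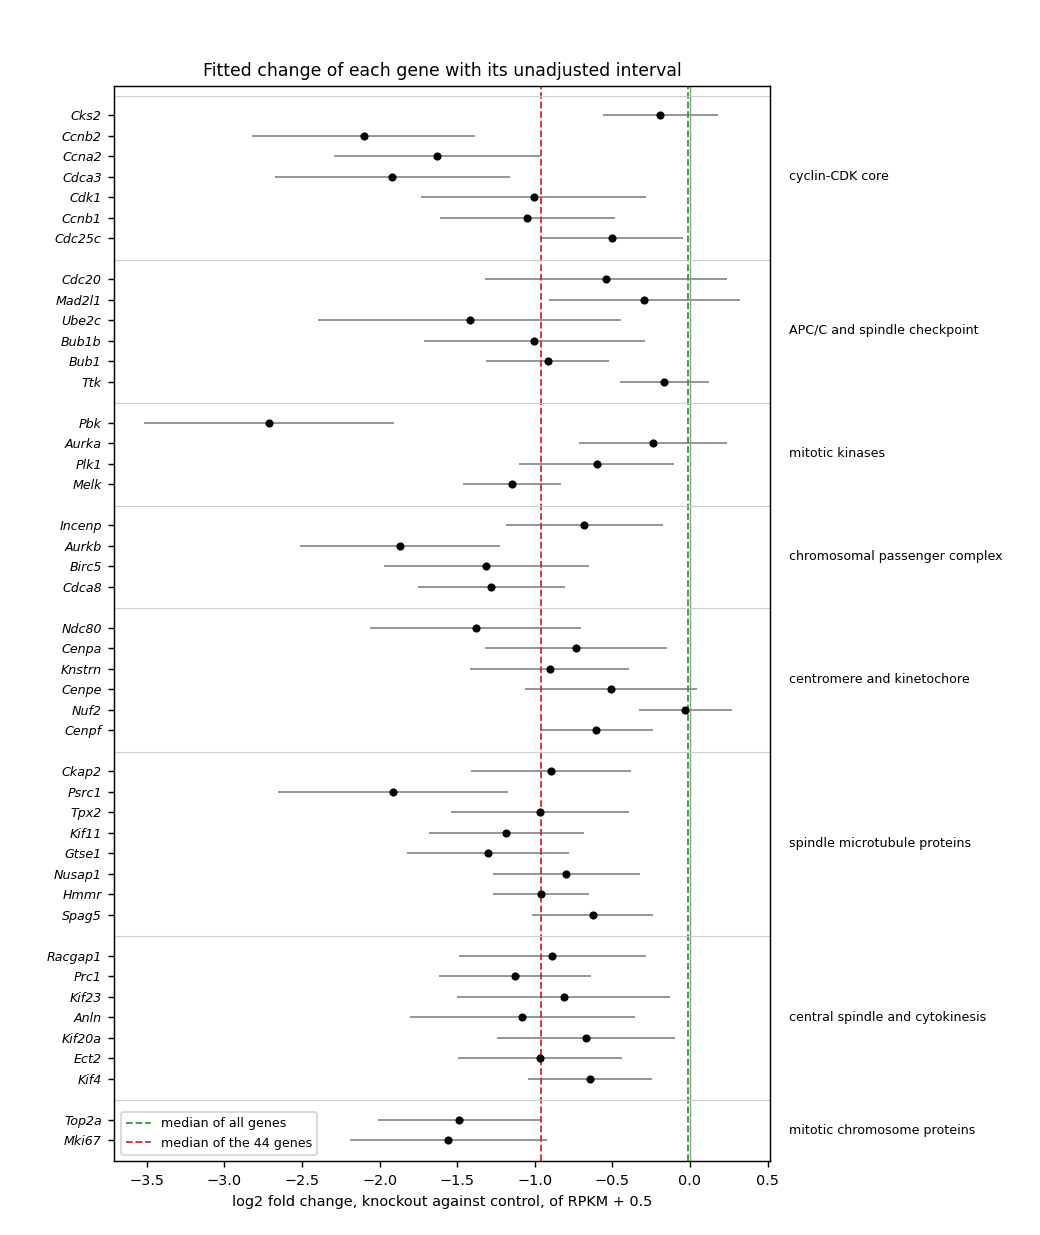
Fitted log2 fold change of each gene in knockout against control on the scale of log2(RPKM + 0.5), grouped by role, with its unadjusted 95% interval from limma. The green dashed line marks the median of all genes (-0.01) and the red dashed line that of the 44 genes (-0.96), and all 44 estimates lie at or below -0.03.

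The 2 control libraries differed from each other in the same direction in every gene. Control 2 was above control 1 in 44 of 44, where 50.6% of all genes were, and the median ratio of control 2 to control 1 was 1.76, against 1.003 over all genes. The knockout libraries showed no such order, with knockout 2 above knockout 1 in 17 genes and below it in 27. Against control 1 alone, the median ratio to the knockout mean was 3.10 and 28 genes were at least 2-fold lower. Against control 2 alone it was 6.40 and 39 genes were at least 2-fold lower. Against the mean of the 2 controls, 37 were at least 2-fold lower, where 3.22% of all genes were. No share of all genes was computed against 1 control alone. Both knockout values lay below control 1 in 41 genes. The controls differed over 2-fold from each other in 10 genes and the knockouts in 7. Fits without control 1 or without control 2 leave 1 control library alone. It is assumed to vary like the other group and takes its spread from the knockout pair, so counts from these fits are not given here.

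Summed over the 44 genes, the level was 90.8 and 132 RPKM (control) versus 60.8 and 53.3 RPKM (knockout). Leaving out Cks2, it was 54.2 and 92.0 RPKM (control) versus 24.6 and 22.5 RPKM (knockout). In reads, the 44 genes summed to 5356 and 7874 (control) versus 2935 and 1698 (knockout).

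Other genes of the cell cycle were set beside the 44 in 5 lists, all genes of which were in the table. Among 72 further mitosis genes, 30 were lower and 4 higher at an unadjusted p under 0.05, where 7.69% and 10.3% of all genes were, and 29 were lower and 4 higher by the authors' deposited q-value. Their median log2 fold change was -0.35. Fam64a, whose product is a regulator of the metaphase to anaphase transition, stood at 0.716 and 1.55 RPKM (control) versus 0.0153 and 0 RPKM (knockout), with 1 read in the 2 knockout libraries together. Kif18b, a motor that shortens microtubules, measured 0.519 and 0.805 versus 0.0108 and 0.0682 RPKM. The 2 most abundant of the 72 were not lower at an unadjusted p under 0.05: Ube2s, the chain-elongating enzyme of the APC/C, measured 171 and 179 versus 237 and 279 RPKM, and the kinetochore gene Zwint measured 48.4 and 46.2 versus 51.0 and 40.8 RPKM. Ube2s was 1 of the 4 with a higher authors' deposited q-value call, beside Pttg1, which encodes the separase inhibitor securin and measured 20.5 and 21.4 versus 48.1 and 34.5 RPKM, and the centromere genes Cenpi and Cenpq, with 1.86 and 1.12 versus 2.78 and 2.28 RPKM and 10.5 and 10.2 versus 15.3 and 18.8 RPKM. These last 3 were picked after their values were seen.

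The core APC/C subunits, which cells also need outside mitosis, had a median of -0.03 over 14 genes, with 1 lower and 2 higher at an unadjusted p under 0.05 and 0 by the authors' deposited q-value in either direction. These counts are near the shares of all genes, 7.69% lower and 10.3% higher, and so are no result about the subunits. They were Cdc23, the lower one, and Anapc13, with 6.26 and 5.68 versus 7.56 and 9.78 RPKM, and Anapc16, with 16.8 and 16.7 versus 20.3 and 29.0 RPKM. Anapc5, the most abundant, measured 44.9 and 61.2 versus 46.8 and 65.6 RPKM.

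The list of activators of mitotic transcription had a median of 0.07 over 10 genes. It also holds the genes of several subunits of the repressing DREAM complex (Lin9, Lin37, Lin52, Lin54 and Rbbp4). This median therefore does not describe activators alone. With 1 lower and 2 higher at an unadjusted p under 0.05, so few genes cannot be set apart from the 7.69% and 10.3% of all genes, and the values are given as a description. The higher were Nfyb, a subunit of NF-Y, with 29.1 and 27.1 versus 36.1 and 44.1 RPKM, and Lin37, a MuvB subunit of DREAM, with 9.88 and 10.4 versus 14.7 and 12.8 RPKM. The lower one was Foxm1, the forkhead activator of G2 and M phase genes, with 0.988 and 1.32 versus 0.803 and 0.410 RPKM. Rbbp4, the other most abundant gene of the list, measured 29.4 and 29.4 versus 30.0 and 29.6 RPKM. Among 13 repressors and inhibitors the median was -0.31, with 4 lower and 0 higher by the same rule, where 7.69% and 10.3% of all genes were, and also by the authors' deposited q-value. Cdkn1c, the gene of the CDK inhibitor p57 and also on the list of myoblast markers below, measured 340.4 and 552 versus 80.0 and 95.0 RPKM, and the atypical repressor gene E2f8, itself active in cycling cells, measured 0.404 and 1.05 versus 0.0925 and 0.101 RPKM. Cdkn1a, the gene of the inhibitor p21, measured 949.7 and 1144 versus 1171 and 1689 RPKM, with a log2 fold change of 0.43 ± 0.24. The 2 pocket protein genes Rb1 and Rbl1, the remaining lower genes, measured 6.02 and 7.05 versus 4.00 and 4.02 RPKM and 0.619 and 0.895 versus 0.388 and 0.467 RPKM.

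S phase genes differed in both directions, with 10 of 40 lower and 6 of 40 higher at an unadjusted p under 0.05, where 7.69% and 10.3% of all genes were. By the authors' deposited q-value 8 were lower and 4 higher, where 4.26% and 3.59% of all genes were, and the median was -0.15. The share that was higher at an unadjusted p under 0.05 is near that of all genes. Pcna, the sliding clamp of DNA replication, measured 72.5 and 61.7 versus 116 and 116 RPKM and the nucleotide reductase gene Rrm2 35.9 and 20.5 versus 60.5 and 47.4 RPKM, both higher in knockout. In contrast 2810417H13Rik (Pclaf, the PCNA-associated factor) measured 0.797 and 1.02 versus 0.137 and 0.101 RPKM. The 44 mitosis genes had no member that was higher by either rule. Limma called none of the genes of these 5 lists at an adjusted p under 0.05.

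**Figure D3:**
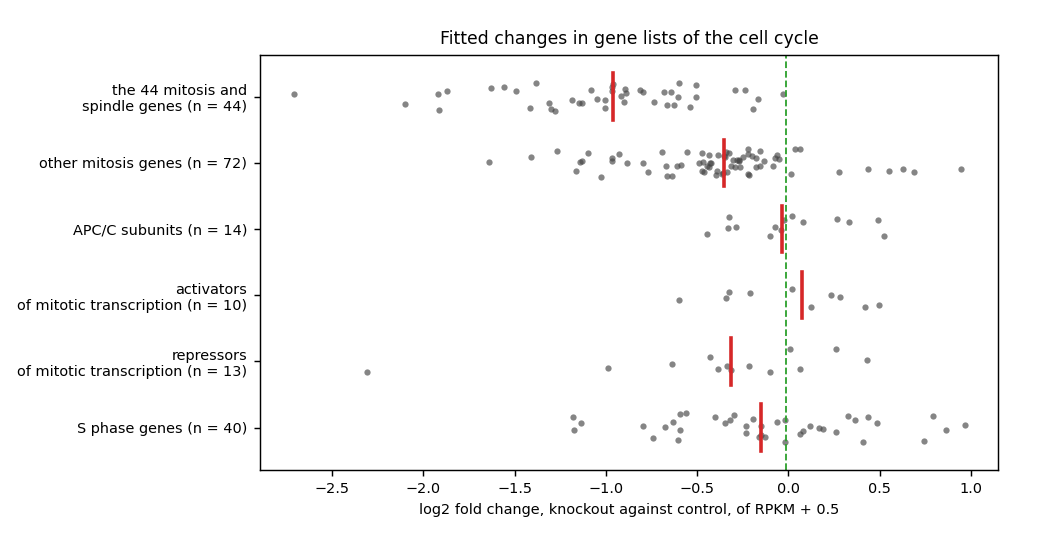
Fitted log2 fold change of single genes (points) on the scale of log2(RPKM + 0.5), in the 44 mitosis and spindle genes and in 5 lists of related genes, with the median of each as a red bar and that of all genes as a green dashed line. The median is -0.96 for the 44 genes, -0.35 for the further mitosis genes and -0.15 for S phase genes, whose points lie on both sides of 0.

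Markers of other cells differed alongside the mitosis genes in some lists and not in others. Of the 10 markers of differentiating myoblasts, 9 were listed and 8 were lower at an unadjusted p under 0.05, where 7.69% of all genes were. The summed level of the 9 was 541 and 891 RPKM (control) versus 115 and 139.8 RPKM (knockout). Myog, the transcription factor of terminal differentiation, measured 111 and 188 versus 23.7 and 28.1 RPKM. Markers of adult muscle fibres were listed for 10 of 12 and summed to 189.7 and 787 RPKM (control) versus 74.5 and 64.9 RPKM (knockout). Of the 10, 3 were lower at an unadjusted p under 0.05 and 8 by the authors' deposited q-value, where 7.69% and 4.26% of all genes were. In both lists, as in the mitosis genes, control 2 was the highest library, and the summed levels of the groups did not overlap. For the fibre markers control 2 carried most of the difference: the median ratio of control 2 to control 1 was 7.28, and without Acta1, the skeletal actin gene, the sums were 46.1 and 331 RPKM (control) versus 38.0 and 33.1 RPKM (knockout). Acta1 itself measured 144 and 455 versus 36.5 and 31.9 RPKM. Smooth muscle and pericyte markers, 9 of 9 listed, also did not overlap, at 528 and 740.1 RPKM (control) versus 307 and 403 RPKM (knockout). However, only Acta2 and Tagln of the 9 were lower at an unadjusted p under 0.05, where 7.69% of all genes were, and the median log2 fold change was 0.09. Stem cell markers, 9 of 9, summed to 3198 and 2586 RPKM (control) versus 4126 and 4580.3 RPKM (knockout). Most of each sum was Sdc4, with 2121 and 1582 versus 3031 and 3260 RPKM, so the higher sum mainly follows that gene. At an unadjusted p under 0.05, 3 of the 9 were higher and 1 lower, where 10.3% and 7.69% of all genes were. With so few genes these counts are a description only, and the median log2 fold change was -0.0045. The part of these markers in the lower mitosis genes was not tested.

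Sums of the remaining marker lists overlapped between the groups. Blood cell markers, 8 of 12 listed, summed to 19.0 and 18.7 RPKM (control) versus 13.4 and 20.8 RPKM (knockout), and Ptprc and Itgam stayed under 0.1 RPKM in every library. Endothelial markers, 10 of 10, summed to 87.2 and 116 RPKM (control) versus 62.4 and 107 RPKM (knockout), tenocyte markers, 7 of 7, to 103 and 56.3 RPKM (control) versus 40.7 and 83.3 RPKM (knockout), and glial markers, 4 of 7, to 16.7 and 18.9 RPKM (control) versus 8.30 and 19.3 RPKM (knockout). Fibro-adipogenic markers, 9 of 12, summed to 1677 and 1529.9 RPKM (control) versus 1536 and 1245 RPKM (knockout), most of it Gsn.

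Within the fibro-adipogenic list single genes differed in opposite directions. At an unadjusted p under 0.05, 3 of 9 were lower and 2 higher, where 7.69% and 10.3% of all genes were. Col1a1, a chain of type I collagen, measured 67.0 and 73.4 versus 12.5 and 12.6 RPKM, 5.59-fold lower. It was the single gene in the table that limma called, with a log2 fold change of -2.43 ± 0.14 and an adjusted p of 0.0385. Leaving out 1 library ended that call, with adjusted p from 0.0619 without knockout 2 and 0.0730 without knockout 1 to 0.0805 without control 1 and 0.411 without control 2. Without the mean-variance trend its adjusted p was 0.0731. The other type I collagen chain, Col1a2, measured 22.6 and 39.4 versus 4.02 and 6.56 RPKM, and the type III collagen gene Col3a1 294 and 323 versus 204 and 96.1 RPKM. Ly6a, given above, and Cd34, a surface antigen with 22.2 and 24.9 versus 32.9 and 38.8 RPKM, were the 2 higher. The part of the cells that carry these markers in the lower mitosis genes was not tested.

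**Figure D4:**
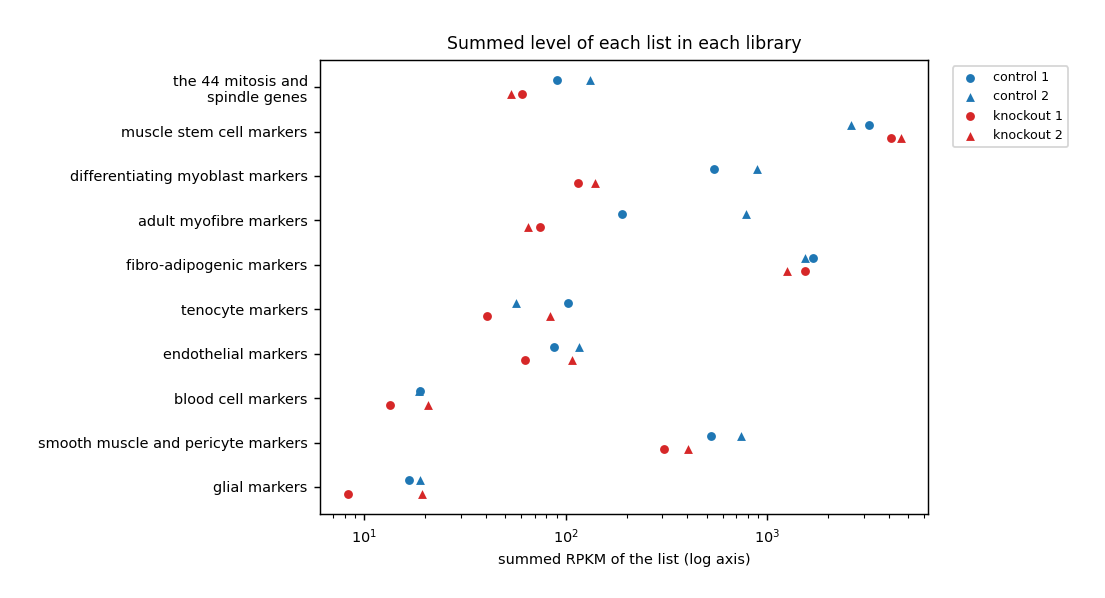
Summed RPKM (log axis) of the 44 mitosis and spindle genes and of each marker list in each library, with circles for replicate 1 and triangles for replicate 2, control in blue and knockout in red. Sums of the mitosis genes and of the differentiating myoblast, adult myofibre and smooth muscle lists are lower in both red symbols than in both blue ones. The stem cell sum, most of it Sdc4, is higher.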

How the data were processed

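Per the submitters' processing notes, the authors used Trim Galore, STAR, featureCounts of Subread and edgeR with mm10 (GRCm38). No version or setting is given in the sources used here. RNA was extracted from sorted cells and 10 ng was reverse transcribed with a template-switching kit, per the labels' protocols. The authors deposited 1 table with 4 columns of RPKM, a q-value (a p-value adjusted over genes) for knockout against control whose model is not given, and exon positions. The RPKM unit was read from the values: dividing value times gene length by a single step for each column gave whole reads in 100% of values within 0.01 reads. Ct in a column name was taken for control and Fl, which the labels do not spell out, for knockout.

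Limma 3.58.1 in R 4.3.3, with a mean-variance trend, was fitted to log2(RPKM + 0.5) over all 11603 genes with a genotype term alone and adjusted by Benjamini-Hochberg at 0.05. All tests are two-sided, and SE and 95% intervals come from this fit. Ratios are of mean RPKM. Precision is limited by 2 libraries per group and by few reads per gene. The members, lists and rules were chosen with earlier results of these data known. Values in each library are given, per role, for the 2 genes with the smallest p and the one with the highest mean reads per library size; for the further lists the 2 most abundant and the 2 with the smallest p; other genes were picked after their values were seen. Of the Entrez IDs, 11594 were found in RefSeq, which served to match older symbols. The fit was tested on simulated data.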

Additional observations from a re-analysis of the deposited data

How the results depend on the processing

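Under the 13 alternatives each of the 44 genes tested stayed lower in knockout (only 18 were tested with a mean of at least 1 RPKM), except that leaving out 1 library gave Nuf2 log2 fold changes of -0.081 to 0.021, the last without control 2, and Mad2l1 -0.60 to 0.0069, the last without knockout 1. The median log2 fold change of the 44 genes was -1.62 with a pseudocount of 0.1 RPKM and -2.17 with limma-voom on recovered reads, both of which compress low values less, and -1.19 to -0.67 when 1 library at a time was left out. With scaling by listed reads, the median of all genes was -0.20 and that of the 44 -1.01. The count called at an adjusted p under 0.05 was 0 under every alternative but the replicate block, and 0 to 0 when 1 library was left out. A block for the replicate number gave 31 of 44 genes called lower and 1004 of all genes. Deviations of same-numbered libraries correlated at 0.394 over all genes and -0.124 over the 44. The labels do not say that a number marks a shared animal or day, so what same-numbered samples share beyond the number is not known. At an unadjusted p under 0.05, 14 were lower among the 18 genes with a mean of at least 1 RPKM, since fewer genes were tested. The share of all genes in that fit is not given here. Each fit that leaves out 1 library has 1 library alone in its group, which is assumed to vary like the other group. Counts at an unadjusted p from such fits are therefore not given. Scaling by median-of-ratios factors was added after seeing the data. DESeq2, the edgeR quasi-likelihood test and TMM factors were not run, although whole reads were recovered and used for limma-voom. Few reads limit the lowest genes: 4 of the 44 had fewer than 10 reads in both knockout libraries.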
